A study of Mus musculus with 3 samples.

Results

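The 10 genes described here encode core parts of the Notch pathway: the receptors Notch1, Notch2 and Notch3, the ligands Jag1, Jag2 and Dll1, the DNA-binding factor Rbpj, and the target genes Hes1, Hey1 and Heyl. They were chosen by gene symbol, and all 10 were found, once each, among the 44625 gene entries of the deposited table. Expression was measured by sequencing polyadenylated RNA from 3 libraries of Alpha6+/Sca1- cells, sorted by fluorescence from the back skin of wild-type (WT) mice aged 56 days (P56), when the hair follicles are in their second rest phase (telogen). All libraries belong to 1 group with no treatment, so no difference between groups was fitted. The title of the series places these cells among hair follicle stem cells and names Prdm16 and the sebaceous gland as its subjects.

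Notch signalling passes between touching cells. A ligand on one cell binds a receptor on its neighbour, the receptor is cut by a metalloprotease and then by gamma-secretase, and its intracellular part joins Rbpj on DNA and switches on genes of the Hes and Hey families, which encode repressors. In skin the pathway is known for promoting the differentiation of keratinocytes that leave the basal layer and for its part in hair follicle maintenance. Its components differ between cell types: Notch3 and Heyl are typical of vascular mural cells, and Dll4 and Notch4 of endothelium.

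Sequencing depth was 29283936 counts for replicate 1, 35264901 for replicate 2 and 39198620 for replicate 3. The labels call the collections duplicates although 3 libraries are given, and nothing states which came from separate mice, so the spread between libraries may be partly technical. All 12 hair follicle stem cell markers and all 5 basal keratinocyte markers were detected, where detected means a mean of at least 1 TPM (counts divided by gene length and scaled so that each library sums to 1e+06). The 10 markers of suprabasal epidermis were detected too, and their summed level was 3770, 4934 and 7889 TPM in replicates 1 to 3. The 13 genes of the dissociation and immediate early response summed to 27741, 17838 and 12726 TPM. In bulk RNA, fewer cells of a type and less RNA per cell cannot be told apart. Replicate 1 stood apart from the others: 59.6% of 13663 detected genes reached their highest value there, against 20.02% that peaked in replicate 2 and 20.4% in replicate 3.

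Promoter sequences are shown for 4 members that the authors' deposited table calls different between these cells and the libraries it compares them with, Notch3 and Dll1 called higher and Notch2 and Rbpj called lower. RefSeq promoter windows on GRCm38.p6 were found for 7 of the 10 members, with no match for Hes1, Hey1 and Heyl. Windows of 250 bases before each start were searched, on both strands, for TGGGAA (the core bound by Rbpj), CACGTG (the E-box) and CACNAG (the N-box bound by Hes proteins). No match of one motif overlapped a match of another in the sequences shown. Each is printed 5′ to 3′ on the strand of its gene, up to the first base that GENCODE M21 annotates as exon of that gene. The Notch3 and Dll1 windows shown held no such base and are printed whole. The starts they precede lie in no GENCODE transcript of the gene. Matches of TGGGAA and CACNAG on either strand are in capitals. The Notch3 sequence is chr17:32166891-32167140 (minus strand), the Dll1 sequence shown is chr17:15376933-15377182 (minus), that of Notch2 is chr3:98013288-98013526 (plus) and that of Rbpj is chr5:53590096-53590213 (plus). The other Dll1 window, chr17:15375824-15376073 (minus), whose start lies in a GENCODE transcript of the gene, is not shown.
Notch3: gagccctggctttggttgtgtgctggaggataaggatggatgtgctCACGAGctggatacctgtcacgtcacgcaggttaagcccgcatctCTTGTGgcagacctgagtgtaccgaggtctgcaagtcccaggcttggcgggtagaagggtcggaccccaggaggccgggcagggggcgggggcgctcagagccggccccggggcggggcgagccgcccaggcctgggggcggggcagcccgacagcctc
Dll1: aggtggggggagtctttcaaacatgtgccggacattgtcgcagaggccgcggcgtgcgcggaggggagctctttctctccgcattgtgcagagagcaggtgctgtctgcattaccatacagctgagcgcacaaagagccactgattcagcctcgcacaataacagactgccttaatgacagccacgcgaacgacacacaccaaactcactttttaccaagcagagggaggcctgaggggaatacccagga
Notch2: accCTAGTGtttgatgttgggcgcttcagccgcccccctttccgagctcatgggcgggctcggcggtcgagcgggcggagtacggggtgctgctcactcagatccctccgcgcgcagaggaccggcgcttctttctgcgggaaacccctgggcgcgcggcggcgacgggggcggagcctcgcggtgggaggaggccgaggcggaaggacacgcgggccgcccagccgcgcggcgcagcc
Rbpj: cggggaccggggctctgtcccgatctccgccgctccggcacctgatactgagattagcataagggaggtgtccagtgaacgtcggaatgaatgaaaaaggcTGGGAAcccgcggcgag
TGGGAA was found in the windows of 1 of the 7 members, Rbpj, and in 21.6% of all 32851 windows of this length. The first of its 2 matches in the Rbpj window began 149 bases before the start, in the stretch shown, and the second, on the opposite strand, 65 bases before it. CACNAG was found in the windows of Notch1, Notch2 and Notch3 and in 36.7% of all windows, and CACGTG in none of the 7 members and in 6.02% of all windows. These matches are letters only and do not show binding. The members' windows were rich in G and C, from 56.0% in 1 of the Dll1 windows to 87.2% in that of Jag2, against a median of 52.4% over all windows.

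All 10 members had counts in all 3 libraries, and 9 of them were detected, against 30.7% of the 44548 genes in the table. Ordered by mean TPM, the levels ran from Jag2 through Jag1, Hes1, Notch1, Notch2, Rbpj, Dll1, Hey1 and Notch3 to Heyl. Of the 9 pairs of neighbours in this order, 7 differed by more than the SD of their difference with the same sign in 3 of 3 replicates. The other two pairs were Notch2 with Rbpj and Hey1 with Notch3, whose order changed between replicates.

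**Figure D1:**
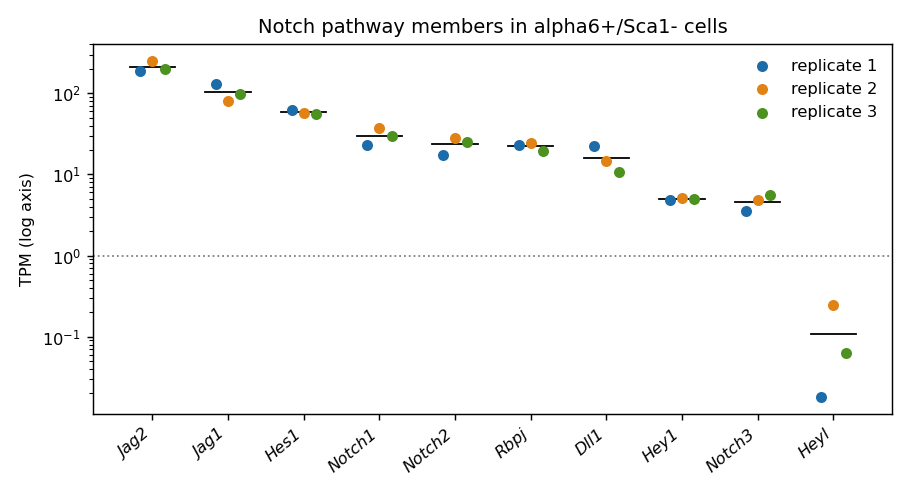
Level of each member in TPM (log axis) in replicates 1, 2 and 3, with the mean as a black bar and the detection limit of 1 TPM as a dotted line. Jag2 sits highest at a mean of 213 TPM, and Heyl is the only member below the limit.

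Among the receptors, Notch1 and Notch2 were present at similar levels and Notch3 was several times lower. Notch1 (ENSMUSG00000026923, GRCm38 chromosome 2, 26457903 to 26516663, minus strand), which restrains proliferation and promotes differentiation in epidermis, had 23.2, 37.3 and 29.6 TPM in replicates 1 to 3, a mean of 30.1 ± 7.06 (SD, n = 3). Notch2 (ENSMUSG00000027878, chromosome 3, 98013527 to 98150361, plus strand), a close paralog, had 17.4, 27.9 and 24.97 TPM, a mean of 23.4 ± 5.43. Both were lowest in replicate 1 and highest in replicate 2. Notch3 (ENSMUSG00000038146, chromosome 17, 32120820 to 32166852, minus strand) was measured at 3.58, 4.78 and 5.51 TPM, a mean of 4.62 ± 0.98. Notch3 was also lowest in replicate 1, but highest in replicate 3.

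Within each library Notch2 lay below Notch1 by 0.40, 0.41 and 0.24 on the log2(TPM + 1) scale, a mean difference of -0.35 ± 0.09 (SD, n = 3). Notch1 lay above Notch3 by 2.46 ± 0.25 on the same scale, a TPM ratio between 5.38 and 7.82. Both differences held in 3 of 3 replicates (exact two-sided sign-flip permutation p = 0.25, Benjamini-Hochberg adjusted over 6 contrasts 0.25), which is the smallest p that 3 replicates allow, so no contrast here could pass 0.05. With Notch4 included, Notch1 made up 51.5% ± 2.09, Notch2 40.1% ± 1.16, Notch3 7.99% ± 1.17 and Notch4 0.447% ± 0.0873 of the summed receptor TPM (SD, n = 3). The sum itself was 44.5, 70.4 and 60.3 TPM, so the receptors kept their proportions while their total differed between libraries.

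The Notch1 level depends on the length it is divided by. The deposited length is 14232 bases, how it was derived was not stated, and the longest annotated transcript has 9488, and for Notch2 the corresponding lengths are 10782 and 10500. With the longest transcript as length, an alternative chosen after seeing the data, Notch2 lay below Notch1 by a log2 difference of -0.87. Exons of the antisense gene 0610009E02Rik overlap those of Notch1, and it had 11, 25 and 21 counts beside 3566, 7276 and 6506 for Notch1. Exons of the antisense gene Gm17276 overlap those of Notch3, and it had 0 counts in all libraries, although with no stated strand setting reads of the partners cannot be told apart.

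The ligands were led by the Jagged genes. Jag2 (ENSMUSG00000002799, chromosome 12, 112907819 to 112929776, minus strand) reached 190.2, 251 and 196 TPM across the replicates, a mean of 213 ± 33.7 (SD, n = 3), higher than 96.1% of detected genes. Jag1 (ENSMUSG00000027276, chromosome 2, 137081456 to 137116644, minus strand), known in skin as a Wnt target in the follicle, had 130, 80.5 and 98.3 TPM, a mean of 103 ± 24.98. The 3 values of Jag2 all lay above those of Jag1. Within libraries Jag2 lay above Jag1 by 0.55, 1.63 and 0.99 on the log2 scale, a mean of 1.06 ± 0.55 with 3 of 3 replicates on the same side (exact sign-flip permutation p = 0.25). With the longest transcript as length this difference was 0.67, since the deposited Jag2 length of 4054 bases is shorter than the 5106 of its longest annotated transcript.

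Dll1 (ENSMUSG00000014773, chromosome 17, 15367354 to 15376872, minus strand), a Delta ligand that human epidermal stem cells are known to express, had 1017, 854 and 690 counts in replicates 1 to 3. These gave 22.4, 14.8 and 10.6 TPM, averaging 15.9 ± 5.96 (SD, n = 3). Exons of A930024N18Rik, on the opposite strand, overlap those of Dll1, and it had 37, 45 and 41 counts. Replicates 1 and 3 of Dll1 differed by more than counting error, whose exact 95% Poisson interval was 21.01 to 23.8 TPM in replicate 1 and 9.83 to 11.4 in replicate 3. Jag1 lay above Dll1 by 2.65 ± 0.39 on the log2(TPM + 1) scale, with 3 of 3 replicates on the same side (exact sign-flip permutation p = 0.25). The other canonical ligands were near the limit of detection: Dll3 had 6, 37 and 7 counts and Dll4 had 8, 7 and 7. Of the summed ligand TPM, Jag2 made up 64.0% ± 8.41, Jag1 31.1% ± 7.43 and Dll1 4.75% ± 1.59. The summed ligand level was 343, 348 and 306 TPM, which is 7.71, 4.94 and 5.06 times the summed receptor level in replicates 1, 2 and 3. These ratios depend on the deposited lengths, as the Notch1 and Jag2 levels do, and were not recomputed with the longest transcript as length.

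**Figure D2:**
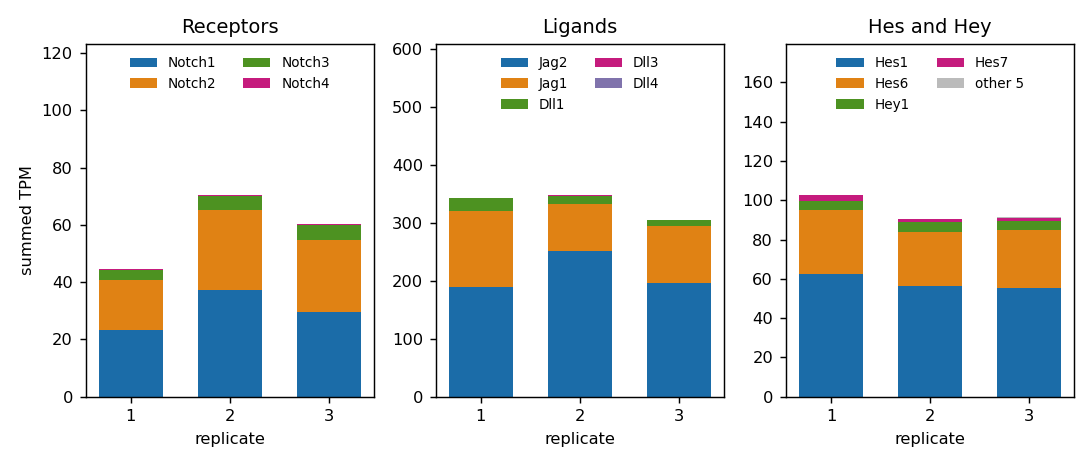
Summed TPM of receptors, ligands and Hes and Hey genes in each replicate (linear axes from 0), stacked by gene, where "other 5" are Heyl, Hey2, Hes2, Hes3 and Hes5. Notch1 with Notch2, Jag2 with Jag1, and Hes1 with Hes6 make up nearly all of each stack in every replicate.

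Rbpj (ENSMUSG00000039191, chromosome 5, 53466152 to 53657362, plus strand), the factor through which all Notch receptors reach their target genes, had 23.0, 24.5 and 19.2 TPM, a mean of 22.2 ± 2.74 (SD, n = 3). It was thus close to Notch2, above it in replicate 1 and below it in the others. This place in the order rests on the deposited length of 12750 bases, more than its longest annotated transcript of 5485. With that transcript as length Rbpj had 43.4 ± 5.33 TPM, above Notch1 with 37.9 ± 9.10 and below Hes1 with 67.7 ± 4.23.

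Among the targets, Hes1 was clearly expressed, Hey1 was low and Heyl was close to absent. Hes1 (ENSMUSG00000022528, chromosome 16, 30064384 to 30067796, plus strand), the repressor most often used as a readout of Notch activity although other pathways also act on it, had 62.6, 56.4 and 55.2 TPM in replicates 1 to 3, a mean of 58.1 ± 4.00 (SD, n = 3). Hey1 (ENSMUSG00000040289, chromosome 3, 8663359 to 8667256, minus strand) stood at 4.89, 5.17 and 4.98 TPM, a mean of 5.01 ± 0.14. Both were even across libraries, with an SD of 0.10 for Hes1 and 0.03 for Hey1 on the log2(TPM + 1) scale. The median SD was 0.23 over 6940 genes of 10 to 100 TPM and 0.42 over 5504 genes of 1 to 10 TPM. Hes1 lay above Hey1 by 3.29 ± 0.12 on that scale, with 3 of 3 replicates on the same side (exact sign-flip permutation p = 0.25).

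Heyl (ENSMUSG00000032744, chromosome 4, 123233556 to 123249875, plus strand) had 1, 17 and 5 counts in replicates 1 to 3. In TPM these were 0.0181, 0.243 and 0.0634, with exact 95% Poisson intervals (counting error only) of 0.000459 to 0.101 in replicate 1, 0.141 to 0.389 in replicate 2 and 0.0206 to 0.148 in replicate 3. Replicate 2 therefore supplied most of the Heyl counts. Heyl lay below Hey1 by a log2 difference of -2.45 ± 0.12 with a pseudocount of 1 and -4.77 with a pseudocount of 0.1, so only the direction, the same in 3 of 3 replicates, can be read (exact sign-flip permutation p = 0.25).

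The remaining Hes and Hey genes separated into Hes6 and the rest. Hes6, which is known to antagonise Hes1 in neural cells, had 32.3, 27.6 and 29.4 TPM, a mean of 29.8 ± 2.39 (SD, n = 3), and made up 31.4% ± 0.925 of the summed Hes and Hey TPM, beside 61.2% ± 0.847 for Hes1 and 5.31% ± 0.485 for Hey1. Hes7, a clock gene of somite formation, had 1.70 ± 0.80 TPM. No library held a count of Hes3, and the 0 counts allow at most 0.152 TPM. Hes2 had 0, 8 and 0 counts, Hes5 had 0, 0 and 5, and Hey2 had 6, 0 and 0. Nrarp, a feedback inhibitor and direct Notch target, had 4.20, 6.93 and 5.17 TPM and was lowest in replicate 1 and highest in replicate 2, the order also seen for Notch1 and Notch2.

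Vascular cells are a known source of Notch3, Heyl, Dll4 and Notch4. The 8 endothelial markers summed to 1.71, 1.60 and 2.27 TPM, and none was detected. Cdh5, Cldn5 and Emcn were at 0 throughout. Others had counts in every library, among them Tek (mean 0.569 TPM), Egfl7 (0.985) and Pecam1 (0.244). Of the 8 pericyte and smooth muscle markers 1 was detected, Cspg4, with 90.7, 162 and 136 TPM, a gene also known from epidermal stem cells. Rgs5 and Des had 0 counts in all libraries and Pdgfrb had 0, 0 and 2, while Acta2 had 8, 22 and 41. Notch4 had 0.255 ± 0.0387 TPM and Dll4 0.148 ± 0.0396 TPM (SD, n = 3), no higher than some of these low vascular markers. Which cells these reads came from was not tested.

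The members did not share one pattern across the 3 libraries. Replicate 1 lay below the mean of the others for Notch1, Notch2, Notch3 and Jag2, by log2 differences of -0.50, -0.57, -0.42 and -0.22. It lay above them for Dll1 and Jag1, by 0.79 and 0.54. For Hes1 the difference was 0.16 and for Rbpj 0.08, and both changed sign with trimmed mean of M-values (TMM) or upper quartile scaling, which moved the median gene of replicate 1 by -0.12 and -0.14. Of the 10 members 3 peaked in replicate 1, 6 in replicate 2 and Notch3 alone in replicate 3, beside the shares of all detected genes given above. In deposited TPM, Dll1 and Hes1 were highest in replicate 1 and lowest in replicate 3, as was the summed dissociation response list. With TMM or upper quartile scaling 2 members peaked in replicate 1 and 7 in replicate 2, and Hes1 no longer peaked in replicate 1. Notch3 was lowest in replicate 1 and highest in replicate 3, as was the summed suprabasal list. The summed upper follicle list was 4715, 4235 and 3192 TPM. The part of these lists in the members' values was not tested.

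The authors' deposited table also gives each gene a log2 fold change and adjusted p-value. From column names, the comparison was taken to be with libraries whose names hold the word bulge, the part of the follicle where its stem cells reside, and those libraries were not analysed here. Its direction was read from 2555 genes with 0 counts in all 3 libraries and a deposited fold change, of which 2555 had a negative value, and positive values were therefore read as higher expression in the Alpha6+/Sca1- cells. In the authors' deposited table an adjusted p under 0.05 was reached by 55.5% of 20274 tested genes, 23.6% higher and 32% lower. Of the 10 members 6 were called, 4 higher and 2 lower, a share near that of all tested genes. The median log2 fold change of the members was 0.84, against -0.36 over all tested genes and 0.25 over 13506 tested genes with a mean of at least 1 TPM.

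In the authors' deposited table the members called higher were Hes1, with a log2 fold change of 2.16 (adjusted p = 9.79e-13), Notch3 with 2.10 (adjusted p = 2.20e-06), Dll1 with 1.85 (adjusted p = 8.22e-06) and Jag2 with 1.73 (adjusted p = 1.01e-09). The members called lower were Rbpj, with -1.20 (adjusted p = 9.42e-09), and Notch2, with -0.63 (adjusted p = 0.0441), in the same table. Not called there were Heyl with 1.00 (adjusted p = 0.554), Hey1 with 0.67 (adjusted p = 0.232), Jag1 with 0.01 (adjusted p = 0.985) and Notch1 with -0.37 (adjusted p = 0.270). Receptors and ligands were thus each split: the lower-expressed receptor Notch3 was called higher while Notch2 was called lower, and Jag2 and Dll1 were called higher while Jag1 was not called. With a threshold of 0.01 or a log2 fold change of at least 1 in size, Notch2 was no longer called. With that fold limit the authors' deposited table calls 19% of tested genes higher and 27.3% lower, and 4 members higher and 1 lower.

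The fold change in the authors' deposited table moved with GC content and length over all genes, a comparison added after seeing the data. Among 14652 tested protein-coding genes in 10 equal groups by GC content of the longest transcript, the median log2 fold change was -1.04 in the lowest group (up to 41.3% GC) and 1.52 in the highest (from 57.9%). By transcript length the medians ran from 1.36 in the shortest group to -1.25 in the longest. Jag2 (61.9% GC) and Notch3 (59.6%) belong to the highest GC group, and their fold changes exceeded its median by 0.21 and 0.58. Rbpj (43.7% GC) lay at -0.47 relative to the median of its group. Hes1 (50.7% GC) and Dll1 (54.9%) exceeded theirs by 1.92 and 1.03. Notch1 (57.1% GC) and Notch2 (53.6%) lay at -1.43 and -1.15 relative to theirs, the lowest of the 10 members. Relative to genes of similar length, Notch2 turned to 0.62 and Notch1 to 0.88, since both transcripts belong to the longest group, while Rbpj stayed at -0.47 and Notch3 reached 3.35. The sign of Hes1, Notch3, Dll1, Jag2 and Rbpj was the same as deposited under both subtractions.

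**Figure D3:**
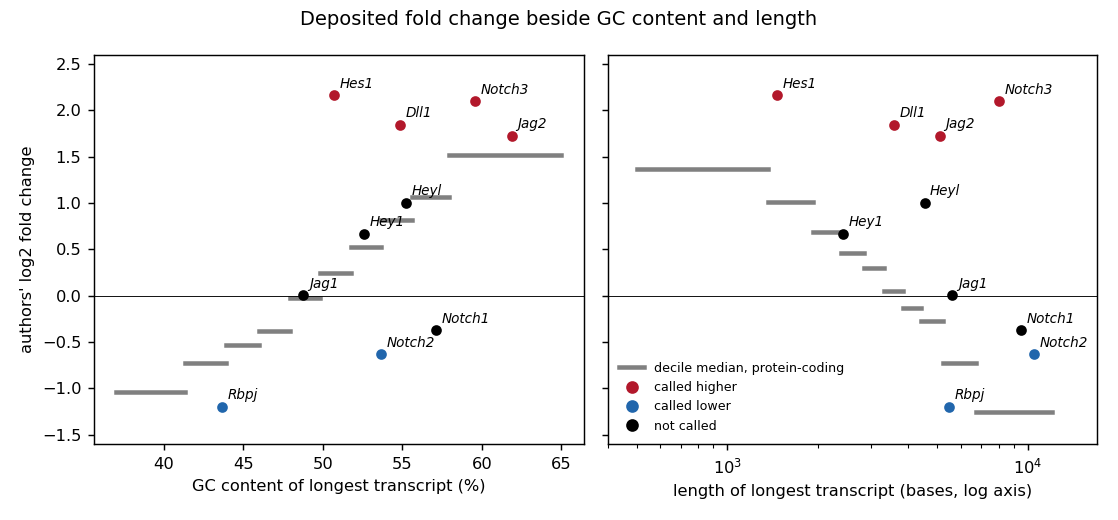
Log2 fold change from the authors' deposited table (vertical axis) against GC content and length of the longest transcript for the 10 members, coloured by call, with grey bars for the median of tested protein-coding genes in each of 10 groups (the outermost bars are drawn shortened). The grey medians climb from -1.04 to 1.52 with GC content, and Notch1 and Notch2 lie below them in the left panel and above them in the right.

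The wider pathway was read from a list of 64 further genes, of which 53 were detected. Of them 59 were tested in the authors' deposited table, 21 called higher and 19 lower, beside 23.6% and 32% of all tested genes. Their median log2 fold change was 0.21. Of the 40 called genes, 37 kept their sign relative to genes of similar GC content and 39 relative to genes of similar length. Differences between roles were not tested.

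The glycosyltransferases modify the receptors and so tune which ligand they respond to. Of the 4 tested, 2 were called higher in the authors' deposited table, Lfng with a log2 fold change of 2.48 (adjusted p = 2.20e-23) and Rfng with 2.58 (adjusted p = 1.26e-15). Lfng was also the most abundant of them, with 124, 120 and 97.6 TPM, ahead of Rfng with 37.8 ± 4.69, Poglut1 with 33.8 ± 6.03 and Pofut1 with 17.5 ± 2.41 TPM (SD, n = 3). Mfng had 0, 3 and 0 counts. Pofut1 (0.58, adjusted p = 0.0548) and Poglut1 (0.16, adjusted p = 0.503) were not called in the authors' deposited table, nor were Notch4 (-1.11, adjusted p = 0.204), Dll3 (2.50, adjusted p = 0.106) and Dll4 (0.46, adjusted p = 0.779). The non-canonical ligands Dlk1, with 1.46, 3.83 and 5.78 TPM, and Dlk2, with 60.6, 35.8 and 28.9 TPM, had log2 fold changes of 2.35 (adjusted p = 0.000574) and 2.18 (adjusted p = 6.76e-06) in that table. Their levels ran in opposite order across the replicates.

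All 10 genes of receptor cleavage were detected, from 4.54 ± 0.89 TPM for Aph1c to 142 ± 1.27 TPM for Psenen (SD, n = 3), both subunits of gamma-secretase. Of these, 5 were called higher and 1 lower in the authors' deposited table. Aph1a, which had 113 ± 25.9 TPM, had the largest log2 fold change of the list, 4.19 (adjusted p = 1.43e-37), while its paralog Aph1c had -1.18 (adjusted p = 4.81e-05). Psen2, a catalytic subunit, had 2.53 (adjusted p = 5.27e-05), and the convertase gene Furin had 1.43 (adjusted p = 7.77e-05). Aph1b and Aph1c are near-identical copies, so their counts are uncertain.

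Of the 11 tested genes of trafficking and turnover, 3 were called higher and 5 lower in the authors' deposited table. The ubiquitin ligase genes Mib1, Neurl1b, Itch and Fbxw7 had log2 fold changes of -1.89, -1.73, -1.53 and -1.04, and Numb, an inhibitor of the receptor, had -1.14. Higher in that table were Dtx3 with 2.69, Mib2 with 2.29 and Dtx4 with 1.78. Mib1 and Mib2, both of which help ligands to be internalised, thus carried opposite signs. Dtx3 was the most abundant of the group on average, but replicate 1 decided this, with 169 TPM against 53.3 and 55.2 in the others. Numb, with 81.5, 53.9 and 68.3 TPM, lay above it in replicates 2 and 3. Dtx1 had 4, 3 and 0 counts.

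Of 7 nuclear coactivators 4 were called lower and 1 higher, and of 6 genes listed as corepressors 5 lower and 0 higher, in the authors' deposited table. Of these 13 genes 6 belong to the longest of the 10 length groups, where 64.8% of tested protein-coding genes were called lower in that table. Maml2 and Maml3, which bridge the receptor fragment to the transcription machinery, had log2 fold changes of -2.06 and -1.69, and the acetyltransferase gene Ep300 had -2.28, in the authors' deposited table. Among corepressors Spen had -1.38, Ncor1 -1.73 and Kdm5a -2.27. Rbpjl, the Rbpj paralog known from pancreas, was listed with them although it is not a corepressor. It had -3.47 on counts of 29, 17 and 88, below the detection limit, and is part of the corepressor counts and medians given here. On average the most abundant coactivator was Snw1 with 58.9 ± 7.03 TPM (SD, n = 3), and the least abundant was Maml3 with 10.6 ± 0.71. Kat2a lay above Snw1 in replicate 1, with 63.3 against 57.3 TPM. Maml2 lay below Maml3 in replicates 2 and 3, with 8.82 and 8.42 against 11.1 and 9.79 TPM. The median fold change relative to genes of similar GC content was -1.03 for the coactivators and -1.66 for the corepressors, and relative to genes of similar length it was -0.44 and -0.74, beside deposited medians of -0.93 and -1.55. All 10 called genes kept their sign under both, with Spen at -0.12 and Ncor1 at -0.47 relative to genes of similar length.

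Of the remaining targets, Hes6 and Nrarp were called higher in the authors' deposited table, with log2 fold changes of 2.88 (adjusted p = 9.33e-13) and 2.06 (adjusted p = 0.000734), Hey2 lower with -2.88 (adjusted p = 0.0357) on 6 counts in all, and Hes7 was not called (1.15, adjusted p = 0.323). The Tle family includes corepressors bound by Hes proteins, a role not assumed here for Tle5 (listed as Aes). Tle5 was the most abundant Tle gene with 398 ± 64.5 TPM (SD, n = 3) and had a log2 fold change of 3.51 in the same table. Tle4 had -1.15 and Tle6, the least abundant with 0.824 TPM, had -1.45 there. Of 6 keratinocyte genes known to respond to Notch, 4 were called higher and 1 lower in the authors' deposited table. They were led by the suprabasal genes Krt10 with 3.29, Ivl with 3.17 and Krt1 with 2.49, while Trp63, a basal regulator that Notch is known to repress, had -1.47. Krt10, with 1181, 1588 and 2910 TPM, and Ivl, with 28.4, 15.7 and 24.5 TPM, were the most and least abundant of these. The wider suprabasal list moved the same way, with 9 of 10 markers called higher in the authors' deposited table. So did the upper follicle list, with 5 of 6 called higher and a median log2 fold change of 2.51, and the dissociation response list, with 9 of 13 called higher and a median of 1.41, in that table. Of the 5 basal keratinocyte markers 4 were also called higher in that table, with a median log2 fold change of 0.87, and Trp63 was the 1 called lower. The part of these lists in the members' fold changes was not tested.

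**Figure D4:**
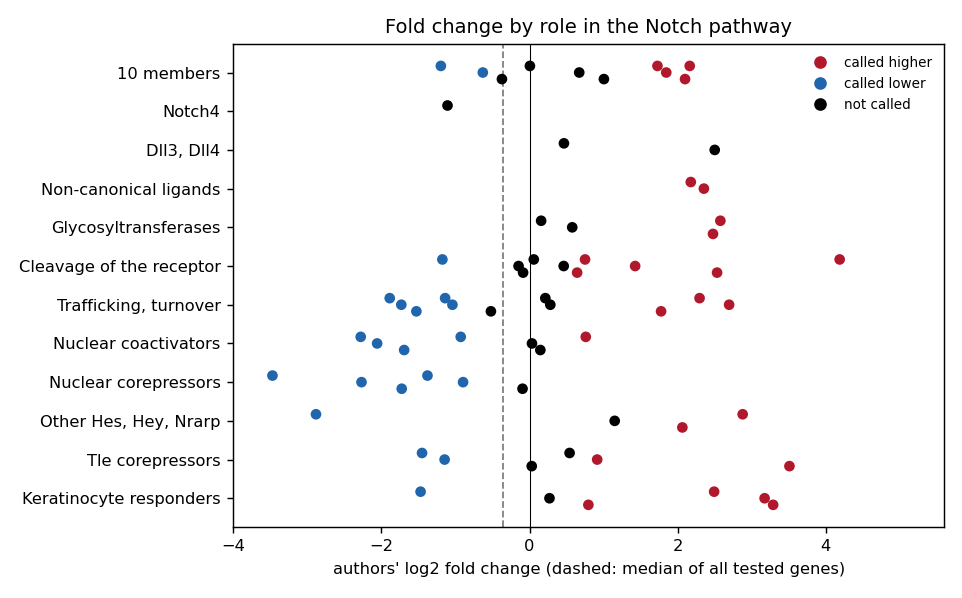
Log2 fold change from the authors' deposited table (horizontal axis) for the 10 members and the other tested pathway genes, 1 point per gene, by role and coloured by call, with the median of all tested genes (-0.36) dashed. Called nuclear cofactors lie on the lower side except for 1 coactivator, and called glycosyltransferases and non-canonical ligands lie on the higher side.

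The authors' deposited table also holds a column headed H3K27me3 with 1 whole number for each gene. H3K27me3 is a histone mark laid by Polycomb complexes and associated with gene repression. The unit of the numbers, their source cells and any peak calling were not stated. In the authors' deposited table only Heyl of the 10 members had a number above 0, 7655, beside 8.06% of all gene entries and a median of 7593 among the 3597 entries with a value. No other gene shared the number given to Heyl. Heyl ranked 359 of 20274 by the score in the authors' deposited table, whose formula was not stated. This rank does not reflect a called change: Heyl scored 1973 with a fold change that was not called. Hes1, called higher with an H3K27me3 number of 0, scored 25.97.

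Across the members and the 64 other genes, 11 carried a number above 0 in the column of the authors' deposited table: Heyl, Dll3, Dll4, Dlk1, Dtx1, Dtx4, Rbpjl, Hes2, Hes3, Hes5 and Hey2. Their values ran from 3502 for Dll3 to 18127 for Dlk1, with 17402 for Hey2 and 14858 for Hes5. Of these 11 genes 2 were detected, Dlk1 and Dtx4, against 60 of the 63 genes with a value of 0, the exceptions being Notch4, Mfng and Tle6. Among all protein-coding genes 17.3% of 2399 with a value and 59.6% of 19027 without were detected. The pathway genes with the mark thus included every canonical ligand and every Hes or Hey gene that was below the detection limit.

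**Figure D5:**
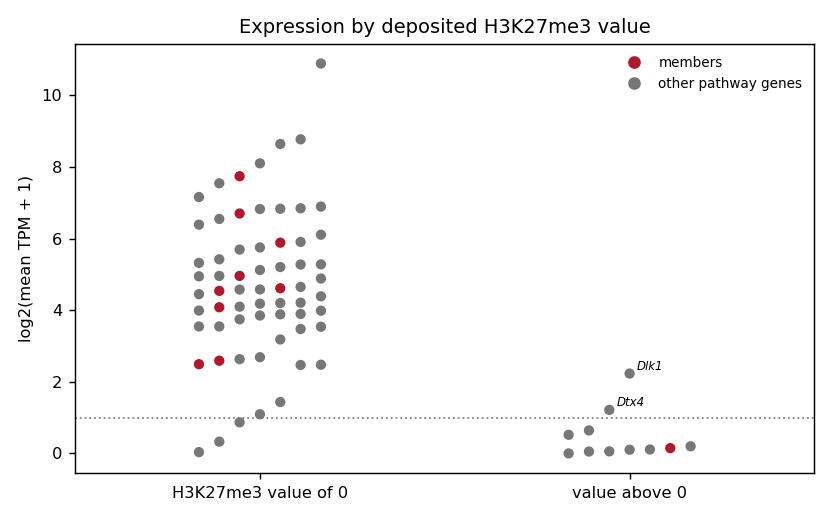
Mean level over 3 replicates, as log2(TPM + 1), of the 10 members (red) and 64 other pathway genes (grey), by whether the authors' deposited H3K27me3 value is 0 or above 0; the dotted line marks 1 TPM. Of the 11 genes with a value above 0, Dlk1 and Dtx4 lie above the line.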

How the data were processed

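Per the labels' protocols, RNA was purified from sorted cells and made into Illumina libraries. The 6 columns of per-sample values that match no sample were not used. The submitters' processing notes name FastQC, SAMtools, TopHat2, DESeq2 and DESeq and the builds mm10 and GRCm38, without roles. Whole-number read counts per gene and TPM were deposited by the authors, per the file headers, with counting tool and strand setting not given in the sources used here. TPM recomputed from counts and deposited lengths differed by at most 4.72e-06. The log2 fold change, its adjusted p-value and a score per gene were also deposited by the authors, per the file headers, with no test stated.

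Samples were grouped by title into 1 group of 3. Levels were compared within libraries on the log2(TPM + 1) scale (pseudocount 1) by two-sided exact sign-flip permutation tests. TMM factors came from edgeR 4.0.16, and these factors and the subtraction of medians by GC content or length were tested on simulated data. Coordinates, transcript lengths and GC content came from GENCODE M21 by identifier (44392 of 44625 found). Of entries sharing a symbol, the one with the highest mean TPM was kept. A listed symbol missing from the table was looked up among RefSeq synonyms (GRCm38.p6). A count of 3, the limit that a count of 0 allows, was 0.102, 0.0851 and 0.0765 counts per 1e+06 in replicates 1 to 3. Intervals and limits cover counting error only. Members and gene lists were chosen with earlier results of these data known. The rule for names was: all members, all further receptors, ligands, glycosyltransferases and Hes, Hey and feedback genes, and in other roles the highest, the lowest and those called with a log2 fold change of at least 1 in size.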

Additional observations from a re-analysis of the deposited data

How the results depend on the processing

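No paired analysis was possible because all 3 samples form 1 group, with no second group to pair them with. Over TMM and upper quartile scaling and a pseudocount of 0.1, 7 of 9 neighbouring pairs stayed separated, and leaving out 1 replicate gave 6 to 8. Leaving out a replicate moved the difference of Jag2 and Jag1 between 0.77 and 1.31, and the members detected stayed at 9. A pseudocount of 0.1 moved Hes1 minus Hey1 to 3.51 and Heyl minus Hey1 to -4.77. The longest transcript as length, chosen after seeing the data, moved Notch2 minus Notch1 to -0.87, Notch1 minus Notch3 to 2.98 and Heyl minus Hey1 to -2.60. Members called lower in the authors' deposited table fell from 2 to 1 with an adjusted p under 0.01 and to 1 with a log2 fold change of at least 1 in size, while those called higher stayed at 4. The difference of replicate 1 from the others turned to -0.089 for Rbpj and -0.0086 for Hes1 with TMM scaling, to -0.12 and -0.037 with upper quartile scaling, and to -0.0034 for Rbpj in library-size scaled counts. Relative to genes of similar length the Notch2 fold change turned to 0.62, as the length subtraction's own construction gives. Depth limits Heyl, Dll3, Dll4 and the low Hes and Hey genes, whose values rest on few counts.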

Other observations

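GC content also moved with the difference between libraries. Among detected protein-coding genes in 10 groups by GC content, the median log2 difference of replicate 1 from the mean of the others was 0.60 in the lowest group and -0.06 in the highest. Notch1, Notch2 and Notch3, at -0.50, -0.57 and -0.42, lay below the median of every group, and Dll1, at 0.79, lay above that of every group.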
